A study of Bos taurus with 12 samples.

Results

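The genes described here are the heat shock proteins and the DNAJ co-chaperones of bovine cumulus cells. They were taken as every probe whose platform gene symbol begins with DNAJ, HSPA, HSPB, HSP90, HSPD, HSPE or HSPH followed by a letter or digit, leaving out binding and associated proteins such as HSPBP1 and HSPBAP1. This gave 101 of the 43794 probes on the array, for 67 platform symbols and 66 current gene names, because HSPA1B is now listed under HSPA1A. After a filter on dim probes 91 of these probes and 63 genes were tested, 23 heat shock proteins and 40 DNAJ genes, among 13534 genes in all. DNAJC5B, HSPB2 and HSPB3 had no probe above the filter, and DNAJA1, a cytosolic partner of HSP70, was not analysed here.

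Cumulus cells are the somatic cells that surround the oocyte and feed it through gap junctions. The cells came from slaughterhouse ovaries, and each complex was assigned by the chromatin of its oocyte's germinal vesicle to GV0, GV1, GV2 or GV3, the order from diffuse to condensed chromatin. Cells of 10 complexes of a stage made 1 pool, whose RNA was amplified before labelling. On each of 12 arrays a GV1, GV2 or GV3 pool (4 arrays each) was labelled with Cy5 and set against a GV0 pool in Cy3. No allele or treatment separates the groups. Whether the pools of a stage came from different animals is not given in the sources used here, so the p-values cover only pool-to-pool spread, which may be technical.

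Each slide held 4 arrays of 1 stage in areas 1 to 4, so slide and stage cannot be told apart, and the same area number on the 3 slides shared closely matching GV0 signals. Because GV0 was always in Cy3, a probe's own dye effect stays in each ratio to GV0 and cancels in a difference between stages. Median spot signals lay between 132 and 230 units in Cy5 and between 277 and 373 in Cy3 (precision is limited by the 4 arrays per stage). Each of 10 cumulus and granulosa markers, among them FSHR, CYP19A1 and AMH, exceeded background on every array in both dyes. The GV1 array of area 3 stood apart: its 7 theca and stroma markers had a mean log2 ratio of 2.21, against -0.26 to 0.06 on the other 11 arrays, and their summed Cy5 signal was 26216.5 against 2280.61 to 2908.53. On that array COL3A1 had 6.67, PDGFRA 3.83, LUM 2.54, DCN 1.38 and COL1A1 1.34. The theca markers of the list, CYP17A1 and INSL3, had -0.21 and -0.07, so the high mean is one of stroma markers. The summed Cy5 signal of 7 leukocyte markers ran from 989.575 to 5379.16 and was highest in area 4 on each slide, with TYROBP and CSF1R at background throughout. The markers' ratios to GV0 did not move together. In area 4 of GV1, GV2 and GV3 CD68 had 0.81, 1.53 and 1.84 and BOLA-DRA 2.70, 1.76 and 0.98. PTPRC had -1.24, -0.70 and -0.79, its lowest on each slide, and AIF1 and CD14 lay between -0.51 and 0.30. The part of either cell type in the results was not tested. In pooled cells, fewer cells of a type and less RNA per cell cannot be told apart.

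Heat shock proteins hold unfolded or nascent proteins and release them through cycles of ATP binding, in which HSP70 is the central machine. DNAJ proteins, also called HSP40s, bring clients to HSP70 and switch on its ATPase, and the HSP110 proteins exchange its nucleotide. HSP90 matures signalling proteins such as steroid receptors, HSP60 with HSP10 folds proteins in mitochondria, and the small heat shock proteins hold unfolded clients without ATP. The heat shock factor HSF1 raises HSPA1A, HSPH1, DNAJB1 and other genes under stress, and a separate response of the endoplasmic reticulum raises its own chaperones. In cumulus cells these systems are known for their response to heat and to the load of secreted matrix proteins.

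Few of these genes differed from GV0 past the threshold, and those that did were all DNAJ genes. A gene was called where its brightest probe had an adjusted p under 0.05 in limma, with Benjamini-Hochberg adjustment over all probes kept. In GV1 6 of 63 genes were called (9.52%) where 9.47% of all genes were, in GV2 6 (9.52%) where 10.3% were, and in GV3 5 (7.94%) where 11% were. These shares lie near the background of each comparison, so the number of calls is not a result about chaperones. By direction, 4 genes were higher and 2 lower in GV1 (3.78% and 5.69% of all genes), 4 and 2 in GV2 (4.58% and 5.73%), and 3 and 2 in GV3 (4.3% and 6.7%).

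The 3 comparisons rest on closely matching GV0 signals in each area and are not treated as independent. Whether the GV0 pools were the same on the 3 slides is not given in the labels. DNAJB1 and DNAJB8 were lower in each of the 3. DNAJC24 was higher in GV1 and GV2, DNAJB14 in GV1 and GV3, DNAJC21 in GV2 and GV3, DNAJA3 in GV1, DNAJA2 in GV2 and DNAJA4 in GV3. DNAJB13 is also counted as higher in GV1 and GV2. It passed the filter only through the stage pools, so nothing is read from its calls. None of the 23 heat shock proteins was called on its brightest probe. The median log2 ratio of the 63 genes was 0.05 in GV1, 0.09 in GV2 and 0.08 in GV3, against 0.00, 0.00 and -0.01 over all genes.

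**Figure D1:**
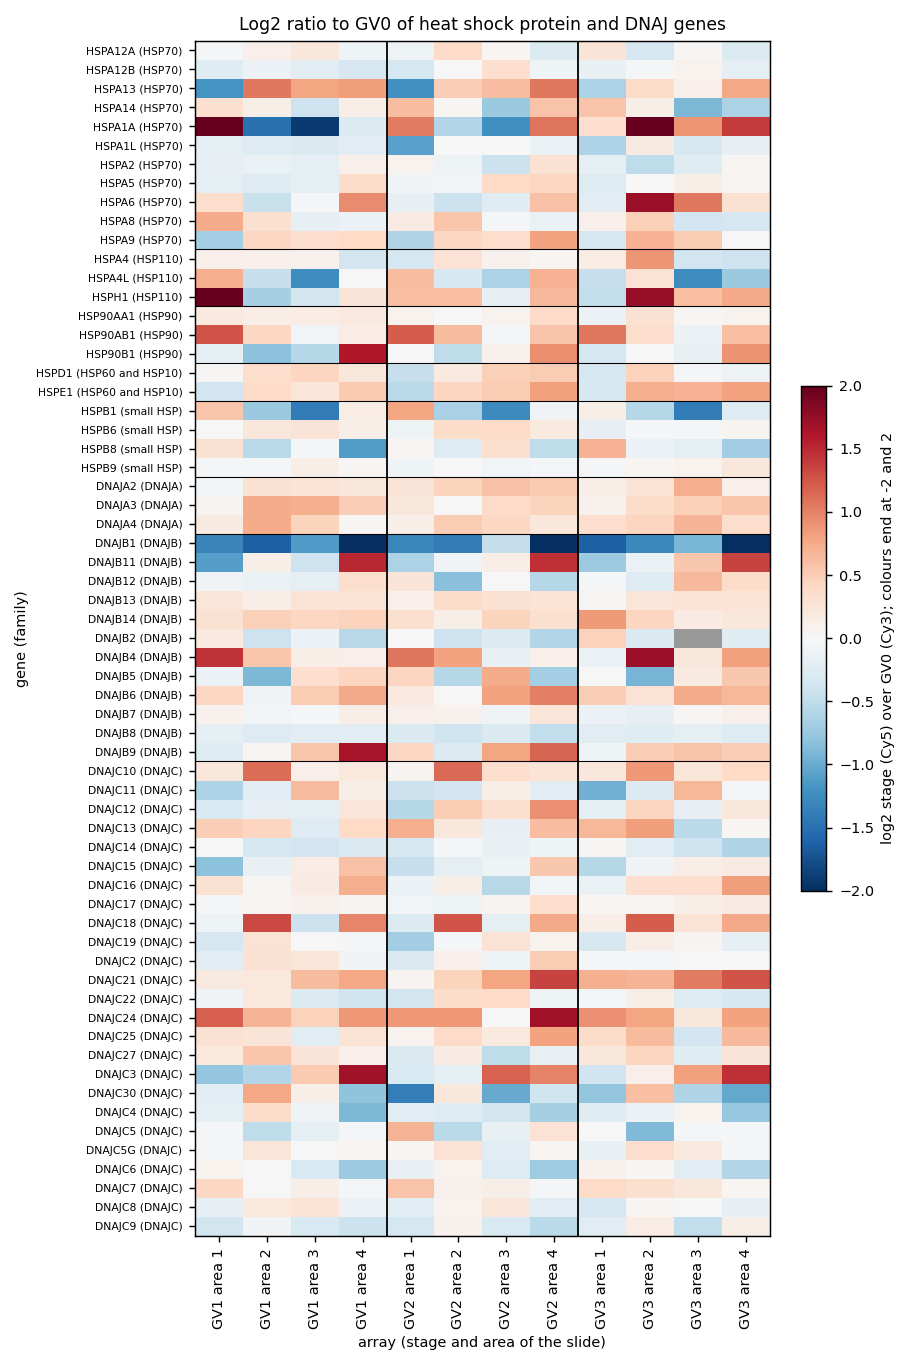
Log2 ratio of each stage pool (Cy5) over the GV0 pool (Cy3) for the 63 tested genes in rows, by family, on the 12 arrays in columns. Red is higher and blue is lower than GV0, colours end at -2 and 2, and grey marks a spot left out. HSPA1A and HSPH1 reach their highest ratios on the GV1 array of area 1 and the GV3 array of area 2, DNAJB1 lies below 0 on every array, and DNAJB11 changes from blue in area 1 to red in area 4 on all 3 slides.

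The inducible cytosolic HSP70, HSPA1A, varied more between pools of 1 stage than almost any other gene. Its log2 ratios to GV0 were 3.01, -1.49, -1.92 and -0.28 on the GV1 arrays of areas 1 to 4. They were 1.04, -0.59, -1.23 and 1.07 on the GV2 arrays and 0.34, 3.02, 0.89 and 1.40 on the GV3 arrays. The stages overlapped, with 1 GV1 array and 1 GV3 array near 3 and all 4 GV3 arrays above 0.

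Within stages the SD of HSPA1A was 1.60, at percentile 99.8 of all genes, where the median gene had 0.30 and the median of the 63 genes was 0.38. The fitted ratios were -0.17 in GV1, 0.07 in GV2 and 1.41 in GV3 (SE 0.73), with adjusted p = 0.912, 0.964 and 0.235 in limma. The difference of GV3 from GV1 was 1.58, with a 95% interval from -0.69 to 3.84. At this spread a difference of several fold was not detectable. Leaving out the GV1 array of area 1 changed the GV1 ratio to -1.23, and leaving out the GV3 array of area 2 changed the GV3 ratio to 0.88. Neither passed the test (adjusted p = 0.212 and 0.566).

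The range of HSPA1A lay in the stage pools rather than in the GV0 pools. Its normalised log2 signal ran from 8.14 to 12.74 in Cy5, a range of 4.60, and from 9.42 to 10.80 in Cy3, a range of 1.38. The probe named HSPA1B gave nearly the same ratios, among them 3.11 on the GV1 array of area 1, 2.97 on the GV3 array of area 2 and -1.79 on the GV1 array of area 3. These near-identical gene copies may share signal on either probe.

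HSPH1, the stress-inducible HSP110 protein, was highest on the same pair of arrays. Its log2 ratios in areas 1 to 4 were 2.16, -0.66, -0.37 and 0.25 in GV1 and 0.60, 0.60, -0.17 and 0.65 in GV2. In GV3 they were -0.50, 1.74, 0.60 and 0.76. The stages overlapped, and the fitted ratios of 0.35, 0.42 and 0.65 (SE 0.42) did not pass in limma (adjusted p = 0.65, 0.569 and 0.352). Without the GV1 array of area 1 the GV1 ratio was -0.26, and without the GV3 array of area 2 the GV3 ratio was 0.29.

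DNAJB4, a cytosolic J protein close to DNAJB1, had its highest ratios on those arrays too, 1.45 on the GV1 array of area 1 and 1.71 on the GV3 array of area 2. HSPA6, known in humans as a strictly inducible HSP70, reached 1.70 on the GV3 array of area 2 and 1.05 on that of area 3. It was above background in Cy5 on 6 of 12 arrays and in Cy3 on 1. It passed the filter only through GV3, with 3 of 4 arrays above background, so its GV3 ratios are given as values with no test. Without the GV3 array of area 2 its GV3 ratio was 0.38 in place of 0.71. Between areas lay 33.6% of the spread for HSPA1A, 40.9% for DNAJB4, 11.5% for HSPH1 and 15.6% for HSPA6, where the 3 of 9 degrees of freedom that areas take come to 33.3%.

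**Figure D2:**
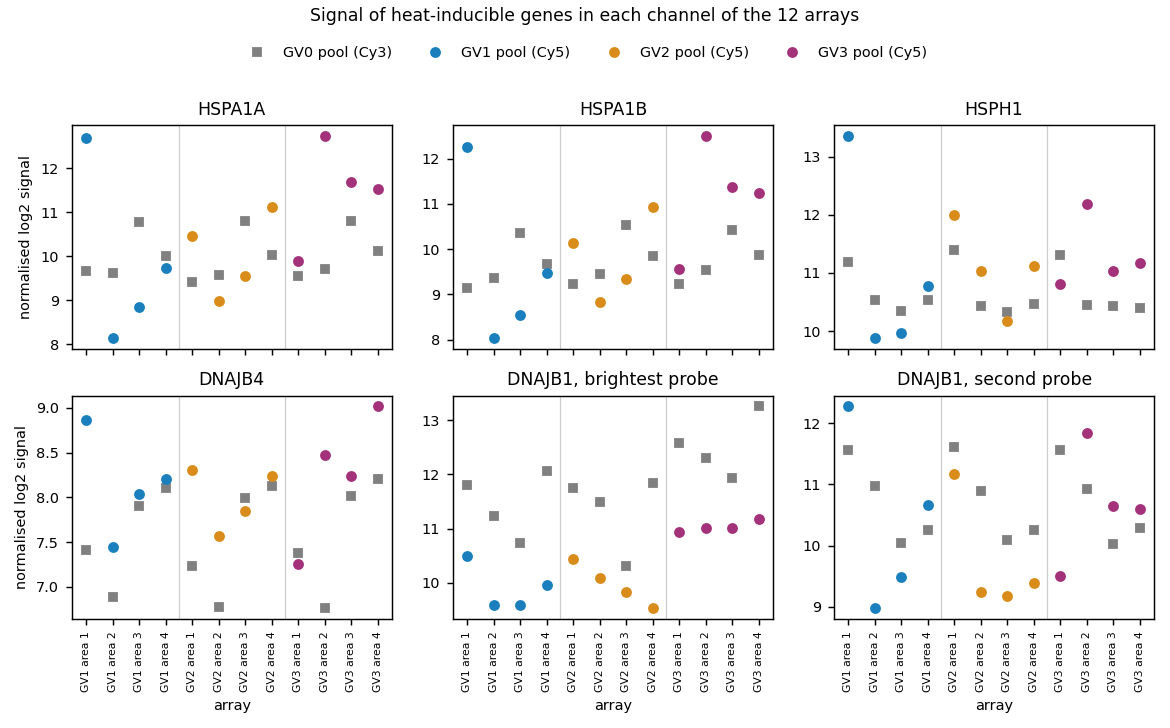
Normalised log2 signal of HSPA1A, the HSPA1B probe, HSPH1, DNAJB4 and 2 probes of DNAJB1 on the 12 arrays, with the GV0 pool (Cy3) as grey squares and the stage pool (Cy5) as coloured circles. For HSPA1A the circles range over 4.60 log2 units and the squares over 1.38, and the brightest DNAJB1 probe has every circle below its square.

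The remaining HSP70 proteins of the cytosol did not pass the test. HSPA8, the constitutive HSP70 that also uncoats clathrin, had fitted log2 ratios of 0.20, 0.13 and -0.03 (SE 0.18) in GV1, GV2 and GV3. Its raw signal reached 93.1% of the level of the array's 20 brightest spots in Cy5 and 97.8% in Cy3. HSPA5 reached 90.3% in Cy5 and 97.3% in Cy3, and HSP90AA1 reached 92.2% and 91.1%. Whether that level lies near the upper end of the scanner's range is not given here. The effect of such high signals on the ratios of these genes was not tested. Ratios of HSPA2 and HSPA1L, both known from male germ cells, stayed between -1.08 and 0.30 on single arrays, and each was above background in Cy5 on 8 of 12. HSPA12A and HSPA12B, distant relatives of HSP70, ranged from -0.35 to 0.39.

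The HSP110 protein HSPA4 had fitted ratios of -0.01, 0.02 and 0.06 (SE 0.19). HSPA4L, its close relative, ranged from -1.26 to 0.72 on single arrays. Over the 3 HSP110 genes no call was made in any comparison, and their medians were -0.01, 0.09 and 0.06. Over the 11 HSP70 genes the medians were 0.04, 0.07 and -0.03, again with no call.

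HSP90AB1, the constitutive cytosolic HSP90, followed the area of the slide. In area 1 its log2 ratio was 1.26 in GV1, 1.22 in GV2 and 1.06 in GV3, and in area 3 it was -0.05, -0.03 and -0.12. The values of areas 2 and 4 lay between, from 0.15 to 0.63. Area accounted for 94.1% of its spread within stages, and its GV0 signal was lowest in area 1 (13.31 to 13.56) and highest in area 3 (14.45 to 14.68).

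The fitted ratios of HSP90AB1 were 0.44, 0.60 and 0.47 (SE 0.24), with adjusted p = 0.262, 0.138 and 0.23 in limma. With the area as a replicate block the SE fell to 0.08 and the adjusted p to 0.00409, 0.00111 and 0.00252. That fit leaves out the spread between areas, and with it the spread between GV0 pools if the slides shared them. HSP90AA1, the inducible HSP90, had ratios from -0.12 to 0.39 on single arrays and 0.17, 0.13 and 0.07 (SE 0.08) as fitted. Its signal was over 80% of the level of the 20 brightest spots on all 12 arrays in Cy5 and on 7 in Cy3, so its narrow range is not set against that of HSP90AB1.

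On their brightest probes the mitochondrial chaperones HSPE1, HSPA9 and HSPD1 had their lowest mean ratio in area 1. HSPE1, the HSP10 lid of the mitochondrial folding chamber, had log2 ratios of -0.39, -0.54 and -0.33 in area 1 of GV1, GV2 and GV3. On the other 9 arrays it lay between 0.24 and 0.81. Area took up 96.3% of its spread, and its fitted ratios of 0.19, 0.30 and 0.48 (SE 0.24) did not pass without the block (adjusted p = 0.659, 0.45 and 0.217). With the area as a block GV2 and GV3 passed in limma (0.00936 and 0.00115) and GV1 did not (0.0566).

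HSPA9, the mitochondrial HSP70 that drives protein import, had -0.67, -0.60 and -0.33 in area 1 and from 0.01 to 0.81 elsewhere. Its fitted ratios were 0.12, 0.24 and 0.22 (SE 0.25), and it passed in no comparison with or without the block. HSPD1, the HSP60 chamber itself, gave different answers with different probes. Its brightest probe had fitted ratios of 0.26, 0.18 and 0.00 (SE 0.16) and passed nowhere. A second probe lay below 0 on all 12 arrays, from -0.73 to -2.57, highest in area 1 and lowest in area 3 on each slide, with fitted ratios of -1.51, -1.50 and -1.62 and adjusted p = 0.0134, 0.0129 and 0.00877 in limma.

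Of the small heat shock proteins, HSPB1 (HSP27), which binds unfolded proteins and actin, had the widest range. Its log2 ratios in areas 1 to 4 were 0.55, -0.74, -1.40 and 0.16 in GV1, 0.78, -0.64, -1.28 and -0.07 in GV2, and 0.12, -0.56, -1.40 and -0.26 in GV3. Area 1 was high and area 3 low on every slide, the stages overlapped, and area took up 96.0% of the spread. The fitted ratios were -0.36, -0.30 and -0.53 (SE 0.37), with adjusted p = 0.579, 0.645 and 0.389 in limma and 0.0193, 0.0355 and 0.00345 with the area as a block. Without the area 3 array of the stage the fitted ratios were -0.01 in GV1, 0.02 in GV2 and -0.24 in GV3.

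A second HSPB1 probe had fitted ratios of 0.06, 0.13 and -0.06, so the lower call under the block rests on the brightest probe. HSPB8, a partner of BAG3 in clearing aggregates, ranged from -1.12 to 0.69. HSPB6 and HSPB9 stayed between -0.17 and 0.38. None of the 4 was called without the block, and their medians were -0.17, -0.07 and -0.06.

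Several chaperones of the endoplasmic reticulum, DNAJB11, HSP90B1, DNAJC3 and HSPA13, had over 80% of their spread within stages between areas of the slide. HSPA5 had 67.3% and DNAJB9 66.1%, near the 67.3% of the median gene, and the membrane protein DNAJB14 had 14.2%. DNAJB11, the J protein that hands clients to HSPA5, had log2 ratios of -1.11, 0.12, -0.41 and 1.51 in areas 1 to 4 of GV1. In GV2 they were -0.63, -0.07, 0.13 and 1.46 and in GV3 -0.72, -0.14, 0.54 and 1.35. Area 1 was the lowest and area 4 the highest on each slide, and the stages overlapped almost fully.

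Between areas lay 94.0% of DNAJB11's spread. In Cy3 its GV0 signal was 13.15 to 13.24 in area 1, 12.30 to 12.54 in area 2, 11.68 to 11.73 in area 3 and 10.80 to 10.98 in area 4. In Cy5 it lay between 11.27 and 12.60 on all 12 arrays. The fitted ratios of DNAJB11 were 0.03, 0.22 and 0.26 (SE 0.44), and it passed in no comparison with or without the block.

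HSP90B1 (GRP94), the HSP90 of the endoplasmic reticulum, had -0.19, -0.82, -0.57 and 1.60 in GV1, -0.01, -0.51, 0.09 and 0.92 in GV2, and -0.36, -0.01, -0.15 and 0.89 in GV3. On this brightest probe area 4 was the highest on every slide, and the GV0 signal fell from 13.99 to 14.10 in area 1 to 11.80 to 12.24 in area 4. A second HSP90B1 probe had its highest ratio in area 4 on the GV1 and GV3 slides, but in area 3 on the GV2 slide. There its Cy5 and Cy3 signals were 9.19 and 8.89 in area 3 and 8.56 and 8.59 in area 4. DNAJC3 (p58IPK), which restrains the stress kinase EIF2AK3, had -0.78, -0.31 and -0.40 in area 1 of GV1, GV2 and GV3 and 1.68, 1.00 and 1.47 in area 4. Area 4 was the highest on the GV1 and GV3 slides, and area 3 was on the GV2 slide. DNAJC3 passed only in GV3 and only with the area as a block (fitted 0.50, adjusted p = 0.0274, against 0.48 without).

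DNAJB9 (ERdj4), which holds the stress sensor ERN1 through HSPA5, was highest in area 4 of GV1 and GV2, at 1.65 and 1.17. On the GV3 arrays of areas 2 to 4 it lay between 0.49 and 0.57. HSPA5 (BiP), the HSP70 of this compartment, ranged only from -0.26 to 0.42, with signals near those of the array's brightest spots. HSPA13, a small HSP70 relative in the same compartment, had -1.19, -1.21 and -0.63 in area 1 and 0.10 to 1.06 elsewhere. None of these genes was called in a comparison without the block.

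Genes of the same compartment outside the families had the same order of areas in part. Of the 23 tested genes of endoplasmic reticulum folding and its stress response, 13 (56.5%) had their highest mean ratio in area 4, where 23.8% of all genes did. The lowest mean ratio lay in area 1 for 8 (34.8%), as it did for 26.1% of all genes. The list's median area share of 64.1% was below the 67.3% of all genes. Red blood cell markers also had a high mean ratio in area 4, at 0.49, 0.49 and 0.39 in GV1, GV2 and GV3 against -0.07 to 0.36 on the other arrays. This mean rested on HBA, at 1.74, 1.99 and 1.22, while SLC4A1, EPB42, HBB and ALAS2 lay between -0.12 and 0.29 there. The mean ratio of 8 oocyte markers in area 4 was 0.17, 0.23 and 0.21, against -0.06 to 0.08 elsewhere, with GDF9 at background throughout. BMP15, NLRP5 and ZP4 were highest in area 4 on each slide, while ZP2, ZP3, DAZL and OOSP2 were not. The part of these cells in the order of areas was not tested. CRELD2, a secreted stress target, had 1.87, 1.71 and 1.04 in area 4 of GV1, GV2 and GV3, and -1.41, -1.54 and -1.60 in area 2. The stress kinase gene EIF2AK3 had 1.57, 1.22 and 1.19 in area 4 and -0.66, -0.41 and -0.50 in area 1. Not every gene of the compartment was high in area 4: EDEM1 had 0.25, -0.55 and -1.69 there. These lists were chosen with earlier results known, so the counts are descriptions.

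**Figure D3:**
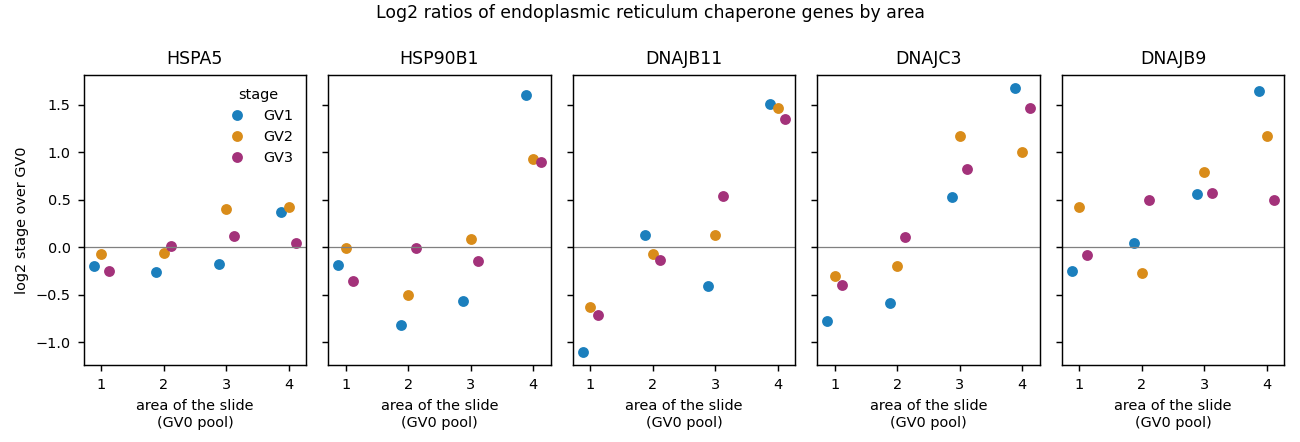
Log2 ratio to GV0 of HSPA5, HSP90B1, DNAJB11, DNAJC3 and DNAJB9 against the area of the slide, 1 point per array, coloured by stage. DNAJB11 rises from between -1.11 and -0.63 in area 1 to between 1.35 and 1.51 in area 4 in all 3 stages, while HSPA5 stays between -0.26 and 0.42.

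Dependence on the area was not particular to chaperones. The median share of the within-stage spread that lay between areas was 69.9% over the members and 67.3% over all genes. The members' median SD was 0.38 against 0.30.

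**Figure D4:**
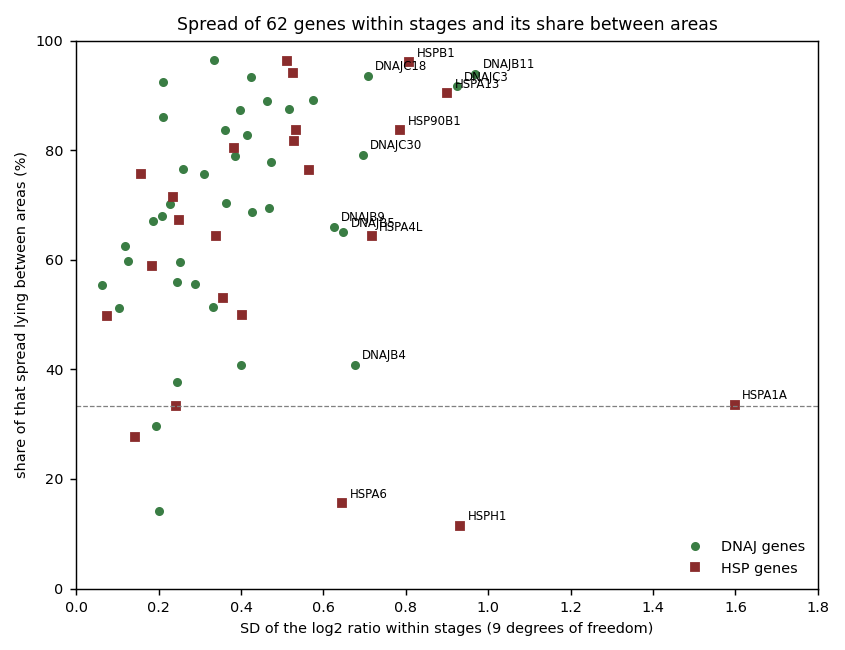
SD of the log2 ratio within stages on the x axis and the share of that spread lying between areas on the y axis, 1 point per gene for the 62 genes with all 12 values, and the dashed line at 33.3%. HSPA1A lies alone at 1.60 near the line, HSPH1 and HSPA6 lie below it, and DNAJB11, DNAJC3, HSPA13 and HSPB1 lie above 90%.

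DNAJB1, the stress-inducible HSP40 that works with HSPA1A and HSPA8, had the largest difference from GV0 among the called genes. Its brightest probe had log2 ratios of -1.32, -1.64, -1.13 and -2.11 in areas 1 to 4 of GV1. They were -1.31, -1.40, -0.48 and -2.31 in GV2 and -1.64, -1.29, -0.91 and -2.09 in GV3. All 12 arrays lay below 0, area 4 was the lowest on each slide, and the stages overlapped.

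The fitted ratios of DNAJB1 were -1.55 in GV1, -1.37 in GV2 and -1.49 in GV3 (SE 0.26), with adjusted p = 0.00605, 0.00956 and 0.00628 in limma. The gene's further probes did not pass. The second had fitted ratios of -0.36, -0.97 and -0.05 (adjusted p = 0.691, 0.238 and 0.961), and the last had -0.64, -0.55 and -0.89 (0.215, 0.292 and 0.0924). The second probe moved with HSPA1A on some arrays, at 0.72 on the GV1 array of area 1 and 0.92 on the GV3 array of area 2, and was lowest, -2.06, on the GV3 array of area 1. With the mean of the 3 probes in place of the brightest, DNAJB1 did not pass in GV1 or GV3.

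The signals of the brightest DNAJB1 probe were higher on the GV3 slide than on the other slides in both channels. In Cy3 the GV0 signal of areas 1 to 4 was 11.81, 11.23, 10.73 and 12.07 on the GV1 slide. It was 11.76, 11.49, 10.31 and 11.84 on the GV2 slide and 12.58, 12.31, 11.93 and 13.27 on the GV3 slide. In Cy5 the signal was 9.59 to 10.49 on the GV1 slide, 9.53 to 10.44 on the GV2 slide and 10.95 to 11.18 on the GV3 slide. The second probe's GV0 signals nearly matched between the GV1, GV2 and GV3 slides, at 10.26, 10.25 and 10.29 in area 4. Those of the last probe were 9.24, 9.30 and 8.96 there. The part of the brightest probe's shift in its ratio was not tested.

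**Figure D5:**
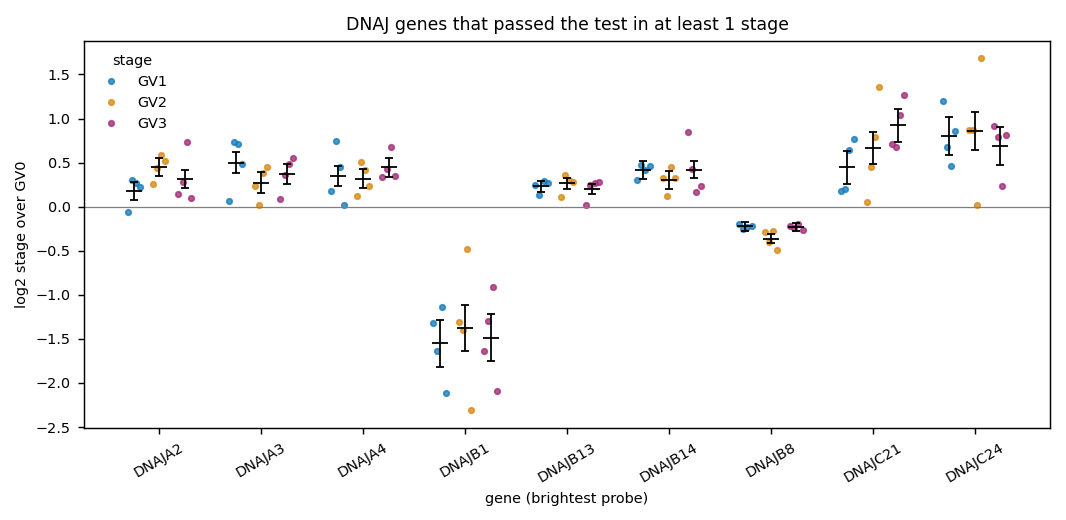
Log2 ratio to GV0 of the 9 DNAJ genes called in at least 1 comparison, by stage. Points are the 4 arrays of a stage, and bars are the fitted ratio with its SE. DNAJB1 lies between -2.31 and -0.48 on every array, DNAJB8 between -0.49 and -0.19, and the other 7 genes lie above 0 on all arrays except 1 GV1 array of DNAJA2. DNAJB13 passed the filter only through the stage pools, so nothing is read from its points.

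The 3 tested DNAJA proteins, which bind clients through a zinc finger, had positive fitted ratios in every stage. Their medians were 0.35, 0.32 and 0.37, and 1 of 3 was called higher in each comparison, where 3.78%, 4.58% and 4.3% of all genes were. DNAJA2, a cytosolic J protein, had log2 ratios of 0.26, 0.44, 0.59 and 0.52 in GV2, where its fitted ratio was 0.45 (SE 0.10, adjusted p = 0.019 in limma). In GV1 it had -0.06 to 0.30 and in GV3 0.10 to 0.73, with fitted ratios of 0.18 and 0.31 that did not pass.

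DNAJA3, the J protein of mitochondria, had 0.06, 0.74, 0.71 and 0.49 in GV1, a fitted 0.50 (SE 0.12, adjusted p = 0.0236). Its GV2 and GV3 values of 0.27 and 0.37 did not pass. A second probe of the gene had 0.07 in GV1 and did not pass, and the last one passed in GV3 with 0.57 (adjusted p = 0.0409). DNAJA4 had 0.33, 0.42, 0.68 and 0.35 in GV3, a fitted 0.45 (SE 0.11, adjusted p = 0.0263), and 0.35 and 0.32 in GV1 and GV2, which passed only with the area as a block (0.01 and 0.0144).

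Among the 12 tested DNAJB genes the calls without a block were DNAJB1 and DNAJB8 lower and DNAJB13 and DNAJB14 higher. DNAJB8, known to keep glutamine-rich proteins from aggregating, gave a small difference on a probe close to background. Its log2 ratios were -0.20 to -0.26 in GV1, -0.28 to -0.49 in GV2 and -0.19 to -0.26 in GV3, with GV2 below the range of the other stages. Fitted ratios were -0.22, -0.36 and -0.23 (SE 0.05), with adjusted p = 0.0161, 0.00172 and 0.0127 in limma. The difference of GV2 from GV1 was -0.14, with a 95% interval from -0.29 to 0.01. In Cy5 DNAJB8 was above background on 3 of 4 arrays in GV1, 4 in GV2 and 1 in GV3, so its GV3 ratio rests mainly on signals at background. In Cy3 it was above background on 11 of 12 arrays.

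DNAJB14, anchored in the endoplasmic reticulum membrane and facing the cytosol, had 0.31, 0.48, 0.41 and 0.46 in GV1. In GV3 it had 0.85, 0.43, 0.17 and 0.23, and in GV2 0.12 to 0.45. The fitted ratios were 0.41, 0.30 and 0.42 (SE 0.10), with adjusted p = 0.0249, 0.0715 and 0.0212. DNAJB13, known from sperm flagella, was above background in Cy3 on 1 array only. In Cy5 it was above background on all 4 GV1 and GV2 arrays and on 2 of 4 GV3 arrays. It passed the filter only through the stage pools, so its calls are counted but nothing is read from them. In GV1 and GV3 the GV0 channel was at background on every array. The plain ratios there were 1.17-fold and 1.15-fold, with the probe's dye effect still in them.

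DNAJB6, which like DNAJB8 keeps proteins from aggregating, ranged from -0.07 to 1.02. Its fitted ratios of 0.40, 0.50 and 0.54 passed only with the area as a block (adjusted p = 0.00903, 0.00338 and 0.0021). The DNAJB medians were 0.03, 0.16 and 0.19.

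Of the 25 tested DNAJC genes, DNAJC24 passed in GV1 and GV2 and DNAJC21 in GV2 and GV3. DNAJC21, whose yeast counterpart helps recycle a factor of the large ribosomal subunit, was above 0 on all 12 arrays. Its log2 ratios were 0.17, 0.20, 0.64 and 0.77 in GV1, 0.06, 0.45, 0.79 and 1.36 in GV2 and 0.71, 0.67, 1.04 and 1.27 in GV3. The ratios rose with the area number in GV1 and GV2, and the stages overlapped. The fitted ratios were 0.45, 0.66 and 0.92 (SE 0.18), with adjusted p = 0.143, 0.0413 and 0.0103 in limma. The difference of GV3 from GV1 was 0.48, with a 95% interval from -0.10 to 1.05 in the fit without the block. With the area as a block its SE fell from 0.26 to 0.12. The limma p was then 0.00282 unadjusted and 0.574 adjusted.

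DNAJC24, which takes part in making diphthamide on a translation factor, had 1.20, 0.68, 0.46 and 0.86 in GV1. In GV2 it had 0.87, 0.87, 0.02 and 1.68 and in GV3 0.91, 0.80, 0.23 and 0.81. Area 3 was the lowest on each slide. The fitted ratios were 0.80, 0.86 and 0.69 (SE 0.22), with adjusted p = 0.0386, 0.0285 and 0.0625. A second probe had -0.03, -0.23 and 0.36 and did not pass, so the calls rest on 1 probe.

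DNAJC10, a reductase that helps misfolded proteins leave the endoplasmic reticulum, was high in area 2 on each slide, at 1.12, 1.14 and 0.87. DNAJC6, the neuronal clathrin uncoating factor auxilin, was low in area 4, at -0.73, -0.71 and -0.59. DNAJC18, a membrane J protein of the same compartment, was high in areas 2 and 4, at 1.22 to 1.32 and 0.75 to 0.98, and between -0.43 and 0.28 in areas 1 and 3. All 3 genes passed in every stage only with the area as a block. The other DNAJC genes, among them the splicing partner DNAJC8, the ribosome-bound DNAJC2 and the mitochondrial import factor DNAJC19, were not called without it. The DNAJC medians were 0.05, 0.05 and 0.08.

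With the area as a replicate block, limma called 18, 20 and 19 of the 63 genes (28.6%, 31.7% and 30.2%) where it called 29.8%, 29.7% and 30.8% of all genes. These shares too lie near the background. By direction, 11 genes were higher and 7 lower in GV1 (14.7% and 15% of all genes), 13 and 7 in GV2 (15.6% and 14.1%) and 14 and 5 in GV3 (14.7% and 16.1%). The 12 called in all 3 were DNAJA4, DNAJB1, DNAJB6, DNAJB8, DNAJB13, DNAJC6, DNAJC10, DNAJC18, DNAJC21, DNAJC24, HSP90AB1 and HSPB1. Nothing is read from DNAJB13, which passed the filter only through the stage pools.

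The counts of calls depended on single arrays. Without the GV1 array of area 3, which carried the high stroma marker signal, only DNAJB1 of the 6 remained in GV1. The fitted ratios of the other 5 were -0.22 for DNAJB8, 0.42 for DNAJB14, 0.43 for DNAJA3, 0.21 for DNAJB13 and 0.92 for DNAJC24, with adjusted p between 0.0587 and 0.117. In the same fit 5 genes each were called in GV2 and GV3. The GV1 count was also 1 without the GV1 array of area 2 or of area 4. The GV2 count was 2 without the GV2 array of area 2 or 4 and 3 without that of area 3, and the GV3 count was 2 without the GV3 array of area 2 or 4. Leaving out a whole area gave 0, 2 and 1 in GV1 without areas 2, 3 and 4. It gave 1 and 2 in GV2 without areas 2 and 4, and 0, 3 and 2 in GV3 without areas 2, 3 and 4. Over all fits without 1 array or 1 area the count was 0 to 6 in GV1, 1 to 7 in GV2 and 0 to 7 in GV3. The shares of all genes called in these fits are not given here, so nothing about chaperones is read from these counts. With area 2 left out on all slides DNAJB1 itself did not pass in any of the 3.

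No chaperone gene was called between stages. In GV2 against GV1, GV3 against GV1 and GV3 against GV2 limma called 0 of 63 genes, as it called 0% of all 13534. At an unadjusted p under 0.05 these numbers were 1, 0 and 1, where 0.953%, 2.01% and 2.76% of all genes passed. With the area as a block the counts stayed at 0, with 4, 5 and 5 of 63 at the unadjusted threshold, where 4.12%, 8.45% and 10.6% of all genes passed. The widest fitted difference was that of HSPA1A between GV3 and GV1, given above.

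Around these families, most other genes of the folding pathway did not pass either. Without the block 9.47%, 10.3% and 11% of all genes passed in GV1, GV2 and GV3. Nothing about the lists is therefore read from their counts. HSF1, the main switch of the heat shock response, had fitted log2 ratios of 0.01, 0.02 and 0.00 (SE 0.09) with arrays between -0.21 and 0.32. None of the 4 tested genes of the heat shock factor list passed in any comparison. Of 12 exchange factors and regulators of HSP70, 1 was higher in GV1, 0 in GV2 and 2 in GV3, and none was lower.

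BAG3, the exchange factor that pairs HSP70 with HSPB8, had 0.16, 1.85, 1.98 and 1.79 in GV3, a fitted 1.45 (SE 0.37, adjusted p = 0.0283 in limma). Its GV1 and GV2 ratios of 0.99 and 0.51 did not pass. BAG6, which guards membrane proteins before insertion, was higher in GV1 by 0.49 (adjusted p = 0.0297) and in GV3 by 0.43 (0.0444). Neither gene passed in a difference between stages.

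Of 19 HSP90 co-chaperones, 2 were higher and 1 lower in GV3, and none passed in GV1 or GV2. STIP1, which links HSP70 to HSP90, fell by 0.63 in GV3 (adjusted p = 0.0497) and was below 0 on all 12 arrays. SUGT1 rose by 0.44 (0.0194) and the steroid receptor partner FKBP4 by 0.53 (0.0295). None of the 14 chaperonin and prefoldin genes passed in any of the 3.

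In the endoplasmic reticulum list of 23 genes 1 was higher and 1 lower in GV3, SEL1L with 0.49 (adjusted p = 0.0466) and SDF2L1, a partner of DNAJB11, with -0.94 (0.0399). None passed in GV1 or GV2. Of 9 genes of mitochondrial folding and import, HSCB, a J protein of iron-sulphur cluster assembly, passed in GV2 with 0.39 (0.0456). The medians of these lists lay between -0.06 and 0.21. With the area as a block the genes passing in GV1, GV2 and GV3 numbered 2, 1 and 2 of the heat shock factors, 5, 4 and 5 of the HSP70 regulators and 6, 2 and 7 of the HSP90 co-chaperones. They numbered 3, 6 and 4 of the chaperonin and prefoldin genes, 2, 3 and 4 of the endoplasmic reticulum list and 2, 3 and 1 of the mitochondrial list. In that fit 29.8%, 29.7% and 30.8% of all genes passed, so nothing about these lists is read from the counts.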

How the data were processed

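Bovine cumulus cell RNA was measured on 12 two-colour arrays, 4 each of GV1, GV2 and GV3 against GV0. Per the file headers, each scanner file holds a mean, a median and a local background intensity for every spot and dye, not normalised. A flag of 0 or 1 per spot, a value of another kind, is also given per the file headers, and its rule is not given in the sources used here. The deposited series matrix holds log2 ratios of the authors. They match the loess-normalised log2 of median Cy5 over median Cy3 without background correction (correlation 1.00 across probes, rounded, on each array), so their direction is stage over GV0 and their array medians lie between -0.01 and 0.00. They served as an alternative.

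Mean spot signals were corrected with normexp (offset 50) and normalised by loess within arrays with limma (version 3.58.1; R version 4.3.3; statmod version 1.5.0). Flagged and control spots were left out. A filter asked for signal in either dye over the negative controls' mean by 2 SD, on 3 or more of a stage's 4 arrays, and removed 7473 of 43794 probes. Channel signals were taken after Aquantile normalisation between arrays. Of the probes 21790 carry 1 gene symbol and 22004 none. Platform symbols were updated through RefSeq's gene table, and the brightest probe left after filtering stood for its gene.

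One limma model with a coefficient per stage was fitted over the 12 arrays (9 residual degrees of freedom), with p-values adjusted over all kept probes. The code was tested on simulated data. The area number pairs the arrays: deviations of same-numbered arrays correlated at 0.492 to 0.735 in all 12 pairs, and each of the 12 arrays was closest to its own area number. Cy3 signals correlated at 0.987 to 0.997 within an area and at 0.930 to 0.974 across areas. The fit with area as a block leaves out the spread between areas, and with it that between GV0 pools if the slides shared them.

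Genes are named where their brightest probe passed in any of the 6 comparisons, or where they were 1 of 17 central chaperones, of which 16 were tested; further members are described by their range. The members and lists were chosen with earlier results of these data known. The alternatives changed the spot summary, background, normalisation, filter, probe choice, block and arrays used.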

Additional observations from a re-analysis of the deposited data

Results flagged for a closer look

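In 7 of 72 groups of 4 arrays (the named genes by stage) 1 array lay far from the other 3, by the gap to its nearest neighbour over the range of the group. For independent, normally spread values chance gives about 1 in 20 such groups. Here the 4 arrays of a group are the 4 areas, whose order recurs across stages and genes. The count is therefore a description and is not set against that rate. In GV3 the array of area 1 was low for DNAJB13 (0.0195 against 0.241 to 0.275), for DNAJB9 (-0.0803 against 0.492 to 0.572) and for HSPE1 (-0.33 against 0.69 to 0.81). In GV1 the array of area 4 was low for HSPA4 (-0.36 against 0.09 to 0.11) and high for HSPA5 (0.37 against -0.26 to -0.18), and that of area 1 was low for HSPA9 (-0.67 against 0.33 to 0.42). In GV2 the array of area 3 was low for HSPH1 (-0.17 against 0.60 to 0.65). The values are log2 ratios to GV0.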

How the results depend on the processing

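Of 63 chaperone genes, 6, 6 and 5 were called in GV1, GV2 and GV3 against GV0. The share of all genes called in the same fit moved too and is given after each count, except for fits without 1 array or 1 area. Median spot signals gave 1, 1 and 3 (0.894%, 1.29% and 2.6% of all genes), and the authors' series matrix gave 1, 1 and 3 (0.924%, 1.54% and 2.57%). Flagged spots kept in the background fit gave 1 in GV1 and 1 in GV2 (0.576% and 1.27%). Median centring gave 13, 14 and 9 (14.7%, 15.9% and 13%), of which 10, 12 and 7 were higher, against 4, 4 and 3 with loess. A stricter filter, with signal over background in both dyes on each array, gave 3 in each (4.59%, 5.09% and 8.32%). The area as a fixed replicate block gave 18, 20 and 19 (29.8%, 29.7% and 30.8%), and as a random effect 4, 7 and 5 (8.37%, 9.45% and 11%). Fitting only the arrays of the stages compared in limma, which leaves fewer samples, gave 0 in each (0% of all genes), with 15, 13 and 14 at an unadjusted p under 0.05 (22.4%, 20.5% and 23.7% of all genes). Leaving out 1 array or 1 area gave 0 to 6, 1 to 7 and 0 to 7. The causes of the other shifts were not tested. No call of a named gene changed sign in any of these settings. The 3 differences between stages gave 0 in all 28 alternatives. DNAJB1 kept its call in 25 of 28 alternatives in each comparison and was lost with area 2 left out in each, and with area 1 left out in GV2. The calls of DNAJB8 close to background were lost with median signals and the series matrix in all 3 stages.

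Limits: 4 arrays per stage, GV0 always in Cy3, stage confounded with slide, and GV0 pools that may be shared between comparisons. Of 19 genes with several kept probes, 3 had fitted ratios over 1 log2 unit apart (DNAJB1, DNAJC24 and HSPD1), and 4 had probes whose calls differed. Ratios of dim probes such as HSPA6 and DNAJB13 are given as values, and nothing is read from them.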
